A study of Mus musculus with 75 samples.

Results

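The ADAMTS proteases are secreted zinc metalloproteases that carry thrombospondin type 1 repeats and act on the extracellular matrix. Of the 55536 genes in the count table of lung RNA from bleomycin (BLEO)-treated mice, 10 were taken here by their gene symbols, *Adamts1*, *Adamts2*, *Adamts4*, *Adamts5*, *Adamts8*, *Adamts9*, *Adamts10*, *Adamts12*, *Adamts14* and *Adamts15*, and all 10 passed the filter on low counts. They are made as precursors with a propeptide, which furin-like convertases remove in many of them. Tissue inhibitor of metalloproteinases 3 (TIMP3) is their best known inhibitor. *Adamts1*, *Adamts4*, *Adamts5*, *Adamts8*, *Adamts9* and *Adamts15* belong to the branch that cuts large proteoglycans such as versican and aggrecan. *Adamts2* and *Adamts14* encode procollagen N-proteinases, which trim the amino end of fibrillar procollagens before fibrils form. The *Adamts10* product binds fibrillin microfibrils, and the *Adamts12* product cuts cartilage oligomeric matrix protein.

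Bulk RNA of the inferior lung lobe was sequenced in 75 mice with 1 library each. The methods describe male C57BL/6JRj mice and mention no transgene. The labels give an age of 12 to 14 weeks when bleomycin sulphate was instilled once into the trachea. There were 10 control mice, 10 BLEO-IPF mice for day 7, 12 for each of days 14, 21, 28 and 35, and 7 for day 42. The controls are labelled as given saline, whereas the protocol text calls them untreated. As a limit of the model, BLEO mice entered the study if they had lost between 5% and 17% of body weight by day 6, so mice with milder or stronger loss are absent. Total counts per library ranged from 9240291 to 14665247. One library stood apart, the day 28 mouse with replicate number 10, with 1507 CPM (counts scaled to the library total) of skeletal muscle markers, 2150 of cardiac markers and 607 of adipose markers, against medians of 4.54, 94.6 and 5.57 over all mice. Results were also computed without it. In lung homogenates, fewer cells of a type and less RNA per cell cannot be told apart.

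The zinc-binding site, which these genes share with other metalloproteases, is printed to show which members are most alike there. The coding sequence of the zinc-binding site is given below for each gene, 5′ to 3′ on the coding strand (GENCODE M21 transcripts, GRCm38), with the codons of the 3 zinc-binding histidines in capitals.
Adamts1: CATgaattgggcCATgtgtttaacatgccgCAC
Adamts4: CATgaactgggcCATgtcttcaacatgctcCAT
Adamts5: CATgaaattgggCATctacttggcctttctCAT
Adamts8: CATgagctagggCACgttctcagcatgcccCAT
Adamts9: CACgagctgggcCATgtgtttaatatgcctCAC
Adamts15: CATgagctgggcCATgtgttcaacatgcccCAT
Adamts2: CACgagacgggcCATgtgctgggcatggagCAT
Adamts14: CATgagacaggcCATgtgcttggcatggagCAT
Adamts10: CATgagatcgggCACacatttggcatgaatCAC
Adamts12: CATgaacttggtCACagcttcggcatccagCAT

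All 10 sequences were different over these 33 bases. The procollagen proteinases *Adamts2* and *Adamts14* were identical at 30 of 33 bases (90.9%), as were *Adamts4* and *Adamts15*, while *Adamts9* and *Adamts12* were the least alike, with 17 of 33 (51.5%). An intron interrupts the site in every gene. It falls after base 10 in *Adamts1*, *Adamts4*, *Adamts5*, *Adamts8* and *Adamts15*, and after base 17 in *Adamts2*, *Adamts9*, *Adamts10*, *Adamts12* and *Adamts14*. With the intron, the site spans chr1:171253210-171253915 (exons 3 and 4) in *Adamts4*, chr11:50775403-50776134 (exons 7 and 8) in *Adamts2* and chr15:11241529-11255564 (exons 7 and 8) in *Adamts12*, all on the plus strand. The longest run of bases that transcripts of any pair of the 10 genes have in common was 47, fewer than the 75 cycles of the sequencing kit.

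In the controls, *Adamts1* RNA was the most abundant per exon length and *Adamts4* RNA the least. Levels of different genes were compared as CPM per kilobase of merged exons, where *Adamts1* stood at 33.7 ± 4.69 (SD, n = 10), *Adamts10* at 23.98 ± 3.107 and *Adamts8* at 13.3 ± 1.21. They were followed by *Adamts2* (8.27 ± 1.058), *Adamts15* (5.35 ± 1.51), *Adamts9* (3.09 ± 0.830), *Adamts5* (2.00 ± 0.218) and *Adamts14* (1.26 ± 0.287). The lowest were *Adamts12* (0.367 ± 0.0682) and *Adamts4* (0.147 ± 0.0473). The ranges over mice of neighbours in this order did not overlap between *Adamts10* and *Adamts8*, between *Adamts8* and *Adamts2*, and between *Adamts14* and *Adamts12*, and overlapped for the other neighbours. On day 14, *Adamts1* was still the highest, at 61.9 ± 27.3 (SD, n = 12), and was above *Adamts2* (31.4 ± 8.43) in 12 of 12 mice. *Adamts12* (6.40 ± 3.53), *Adamts9* (5.33 ± 1.48) and *Adamts4* (5.09 ± 3.54) then lay within each other's ranges, and *Adamts5* (2.09 ± 0.768) came last. By day 42, *Adamts14* was the lowest on this scale (0.744 ± 0.157, SD, n = 7), within the range of *Adamts12* (0.897 ± 0.583).

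**Figure D1:**
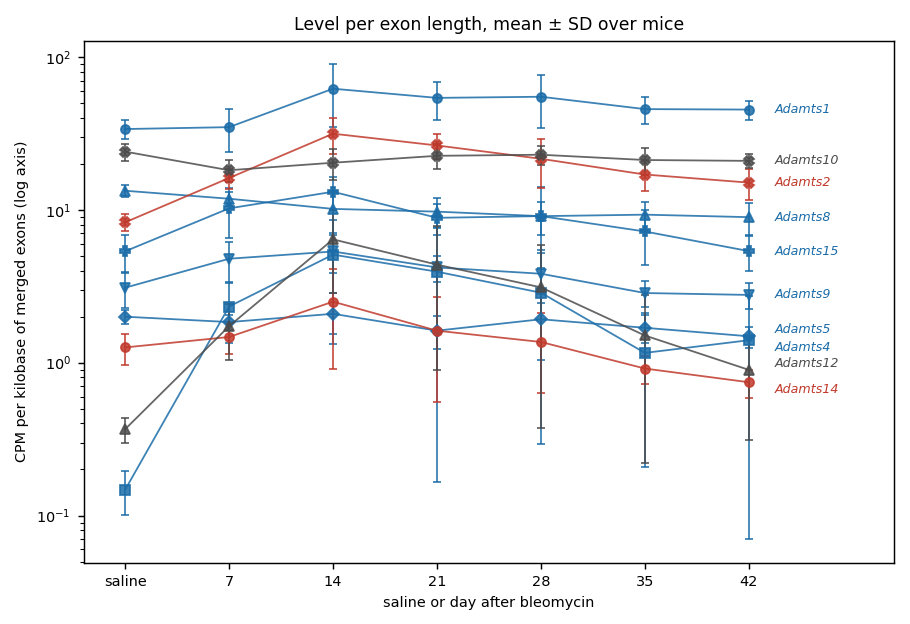
Mean CPM per kilobase of merged exons (log axis) for the saline controls and the 6 days after bleomycin, with SD over mice as bars, for proteoglycanases (blue), procollagen N-proteinases (red) and the other members (grey). *Adamts12* and *Adamts4* are lowest in controls and rank 6 and 8 of 10 on day 14, and *Adamts1* stays on top in every group.

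Each BLEO day was compared with the controls to see which members differed and for how long. *Adamts4*, *Adamts12* and *Adamts2* were higher on all 6 days. *Adamts15* was higher from day 7 to 28, *Adamts9* from day 7 to 21, *Adamts1* from day 14 to 28 and *Adamts14* at day 14. *Adamts8* was lower from day 14 to day 42 and *Adamts10* on days 7 and 14, whereas *Adamts5* passed the test on 0 of the 6 days. Adjusted p-values are from edgeR's quasi-likelihood F test with Benjamini-Hochberg adjustment over the 16221 genes tested, and a call means an adjusted p under 0.05. On day 14, 9 of the 10 members were called (62.4% of all genes tested were), 7 of them higher (32.4% of all genes) and 2 lower (29.9%). On day 7 there were 6 (45.8%), 5 higher (24.8%) and 1 lower (21%). On day 21 there were 7 (54.2%), 6 higher (28.3%) and 1 lower (25.8%), and on day 28 there were 6 (43.3%), 5 higher (24.1%) and 1 lower (19.2%). The late days had 4 each, 3 higher and 1 lower, on day 35 with 29.9% of all genes called, 16.9% higher and 13.1% lower, and on day 42 with 24.7% called, 13.7% higher and 11% lower. The median log2 fold change of the members was 0.93 on day 14 and -0.08 on day 42, against 0.01 over all genes tested on both days. All 6 comparisons use the same 10 control mice, so their values are given side by side and are not independent of each other.

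**Figure D2:**
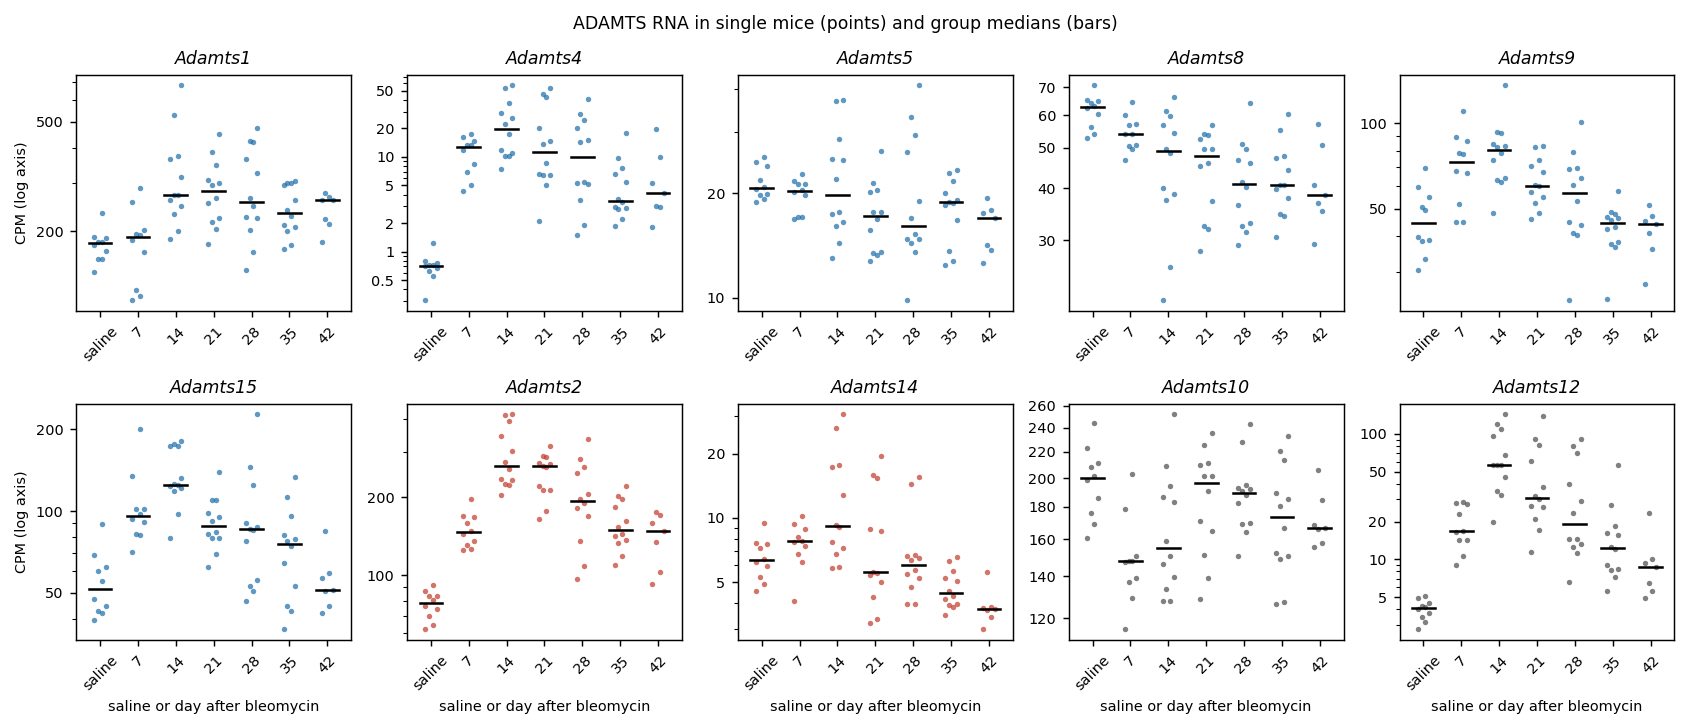
CPM (log axis, which differs between genes) of each member in single mice, with 1 point per mouse and the group median as a bar, for proteoglycanases (blue), procollagen N-proteinases (red) and the other members (grey). The points of *Adamts4* and *Adamts2* lie above all controls on each of the 6 days, and those of *Adamts12* from day 7 to day 35. Those of all other members overlap the controls on every day.

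Among the proteoglycanases, *Adamts4* (aggrecanase-1) rose most. *Adamts4* (ENSMUSG00000006403, chr1:171250421-171260637 of GRCm38, plus strand) ranged from 0.307 to 1.22 CPM in the controls with a median of 0.713, which rests on 3 to 18 counts per library. On day 7 it ranged from 4.32 to 17.4 CPM (median 12.7), and on day 14 from 7.55 to 57.1 (median 19.8). On day 42 the range was still 1.81 to 19.95 CPM (median 4.16). Every BLEO mouse on every day was thus above every control mouse, a separation shown by 7.39% of all genes tested at day 7, by 9.46% at day 14 and by 6.84% at day 21. For the later days these shares were 2.1% (day 28), 2.43% (day 35) and 4.22% (day 42). The log2 fold change was 3.93 ± 0.62 (standard error) on day 7, 5.06 ± 0.61 on day 14 (adjusted p = 7.61e-11) and 3.19 ± 0.67 on day 42 (adjusted p = 2.43e-04). The size of these changes depends on the few control counts. Mice of one day also differed widely, as on day 21, where the lowest had 2.12 and the highest 53.5 CPM, and on day 28, with 1.49 and 40.5.

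*Adamts15*, whose product cuts versican and aggrecan, and *Adamts9*, a versicanase, rose early. *Adamts15* (ENSMUSG00000033453, chr9:30899155-30922452, minus strand) ranged from 39.8 to 89.8 CPM in the controls (median 51.5) and from 79.8 to 182 on day 14 (median 125). Its log2 fold change was 0.93 ± 0.21 on day 7 and 1.29 ± 0.20 on day 14 (adjusted p = 1.40e-07), and 0.00 ± 0.23 on day 42 (adjusted p = 0.993), where the range of 42.2 to 84.6 CPM lay within that of the controls. *Adamts9* (ENSMUSG00000030022, chr6:92772699-92943492, minus strand) ranged from 30.5 to 69.7 CPM in the controls (median 44.6), from 44.7 to 111 on day 7 (median 73) and from 48.2 to 136 on day 14 (median 80.5). The log2 fold change of *Adamts9* was 0.79 ± 0.16 on day 14 (adjusted p = 2.78e-05) and -0.16 ± 0.19 on day 42 (adjusted p = 0.576). All mice of days 7 and 14 were above the control median for both genes, but the groups overlapped. *Adamts9* overlaps 3 genes on the opposite strand, the sources used here do not state how the counting treated strand, and the one with the most counts, 9530026P05Rik, had 9.77% as many counts as *Adamts9* over all libraries and shares 0 exon bases with it.

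*Adamts1*, which encodes a versican- and aggrecan-cutting protease with antiangiogenic activity, was first called on day 14, as was *Adamts14*. *Adamts1* (ENSMUSG00000022893, chr16:85793827-85803113, minus strand) ranged from 142 to 234 CPM in the controls (median 181) and from 112 to 287 on day 7 (median 190), without a difference past the threshold (log2 fold change 0.04 ± 0.19, adjusted p = 0.874). On day 14 it ranged from 188 to 679 CPM (median 272), with a log2 fold change of 0.88 ± 0.18 (adjusted p = 2.37e-05). On days 35 and 42 the log2 fold changes were 0.43 ± 0.18 (adjusted p = 0.0564) and 0.42 ± 0.20 (adjusted p = 0.115). The day 35 value passed the threshold under 6 of 9 alternative settings, with adjusted p-values from 0.00135 to 0.101. *Adamts5* (ENSMUSG00000022894, chr16:85856173-85901828, minus strand), which encodes aggrecanase-2 and is the neighbour of *Adamts1* on the chromosome, was not called on day 14, although mice 8 and 1 were the highest for both genes on that day. It ranged from 18.9 to 25.4 CPM in the controls (median 20.8) and from 13.01 to 37.1 on day 14 (median 19.8), with a log2 fold change of 0.06 ± 0.16 (adjusted p = 0.753). *Adamts5* was lower on days 21 and 42 without a call. In the edgeR fit of only the groups compared, 1 of 9 alternatives, it passed the threshold on both days. There its log2 fold change was -0.30 on day 21 (adjusted p = 0.0185) and -0.42 on day 42 (adjusted p = 9.33e-04). Single mice of days 14 and 28 lay on both sides of the control range of *Adamts5*, up to 41.03 and down to 9.83 CPM on day 28.

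*Adamts8* was the only proteoglycanase called lower than in the controls. *Adamts8* (ENSMUSG00000031994, chr9:30942562-30963838, plus strand), which like *Adamts1* encodes a protease known for antiangiogenic activity, ranged from 52.9 to 70.8 CPM in the controls (median 62.7). It ranged from 21.5 to 66.2 CPM on day 14 (median 49.2) and from 29.3 to 57.1 on day 42 (median 38.5). The lowest BLEO mice were far under all controls, while the highest of each day stayed within the control range. The log2 fold change was -0.17 ± 0.14 on day 7 (adjusted p = 0.310) and -0.39 ± 0.13 on day 14 (adjusted p = 0.00797). It reached -0.55 ± 0.13 by day 28 (adjusted p = 5.51e-04) and -0.57 ± 0.16 by day 42 (adjusted p = 0.00461). *Adamts8* and *Adamts15* lie next to each other on chromosome 9 in opposite orientation. Per exon length, *Adamts15* was at a median of 0.363 times the level of *Adamts8* in control mice (range 0.307 to 0.711), 1.32 times on day 14 (0.536 to 3.13) and 0.519 times on day 42 (0.396 to 1.28).

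The procollagen N-proteinases were both highest on day 14, but differed in the size of their changes and in their day 42 values against the controls. *Adamts2* (ENSMUSG00000036545, chr11:50602084-50807573, plus strand) ranged from 61.9 to 92.1 CPM in the controls (median 78.2), from 125 to 197 on day 7 (median 147) and from 204 to 417 on day 14 (median 265). On day 42 it ranged from 92.7 to 175 CPM (median 148). As with *Adamts4*, all BLEO mice of all 6 days lay above all controls, although on day 42 the lowest BLEO mouse exceeded the highest control by less than 1 CPM. The log2 fold change of *Adamts2* was 0.96 ± 0.15 on day 7, 1.93 ± 0.15 on day 14 (adjusted p = 4.22e-17) and 0.86 ± 0.17 on day 42 (adjusted p = 6.68e-05). *Adamts14* (ENSMUSG00000059901, chr10:61197112-61273438, minus strand) ranged from 4.56 to 9.49 CPM in the controls (median 6.32), from 5.81 to 30.5 on day 14 (median 9.16) and from 3.00 to 5.597 on day 42 (median 3.75). It rose on day 14 with a log2 fold change of 0.99 ± 0.26 (adjusted p = 6.91e-04). Its log2 fold change on day 42 was -0.76 ± 0.32, with an adjusted p of 0.0673 that fell under 0.05 with DESeq2, with limma and in the fit of only these groups. Per exon length, the level of *Adamts2* was a median of 6.67 times that of *Adamts14* in control mice (range 4.46 to 10.5) and 19.6 times on day 42 (14.96 to 31.6), and these ranges did not overlap.

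The remaining members moved in opposite directions. *Adamts12* (ENSMUSG00000047497, chr15:11064790-11349231, plus strand) ranged from 2.76 to 5.12 CPM in the controls (median 4.08), from 8.93 to 28.7 on day 7 (median 16.7) and from 19.8 to 143 on day 14 (median 56.6). All mice of days 7 to 35 lay above all controls, and on day 42, with 4.92 to 23.5 CPM (median 8.62), the groups overlapped. The log2 fold change of *Adamts12* was 2.24 ± 0.45 on day 7, 4.12 ± 0.45 on day 14 (adjusted p = 4.77e-12) and 1.28 ± 0.50 on day 42 (adjusted p = 0.0487). This last call rests on a narrow margin, with an adjusted p of 0.0862 without the filter on low counts and 0.0507 with at least 10 counts in every mouse. *Adamts10* (ENSMUSG00000024299, chr17:33524204-33553782, plus strand) ranged from 161 to 244 CPM in the controls (median 199.98), from 115 to 203 on day 7 (median 148) and from 128 to 252 on day 14 (median 155). It fell by 0.40 ± 0.11 on the log2 scale on day 7 (adjusted p = 0.00183) and by 0.24 ± 0.10 on day 14 (adjusted p = 0.0399, and 0.0760 without the filter on low counts), and from day 21 on its log2 fold changes lay between -0.20 and -0.07 without a call.

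**Figure D3:**
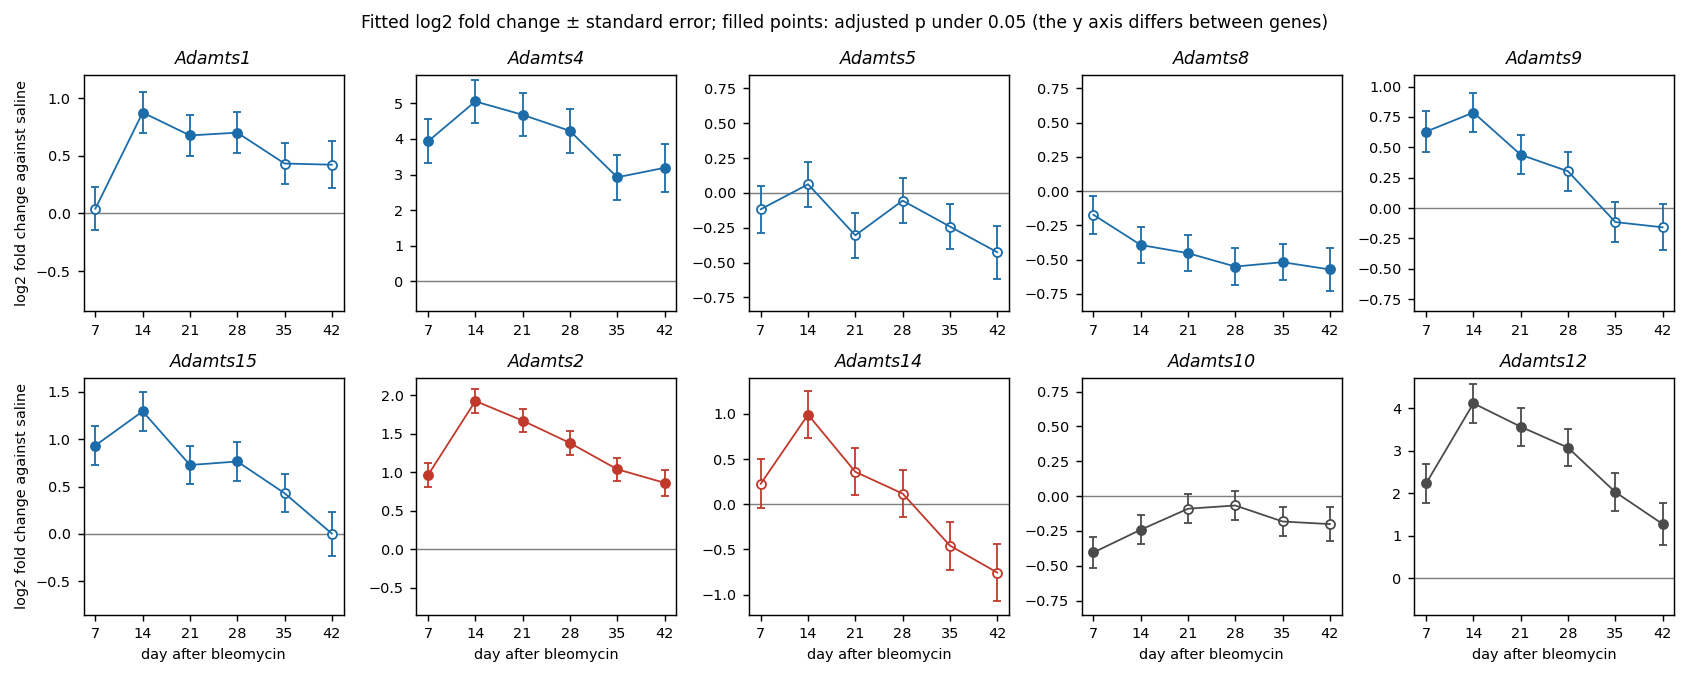
Fitted log2 fold change of each member against the saline controls (y axis, which differs between genes) by day after bleomycin, with the standard error as bars and filled points for an adjusted p under 0.05. *Adamts4*, *Adamts12*, *Adamts2*, *Adamts15*, *Adamts14*, *Adamts9* and *Adamts1* have their highest value on day 14, and *Adamts8* has its lowest value on day 42.

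The days were then compared with each other. These differences do not use the control means, but the control mice were part of the fit that estimated the spread. From day 7 to day 14, *Adamts12* (log2 difference 1.88 ± 0.39, adjusted p = 4.65e-04), *Adamts2* (0.96 ± 0.15, adjusted p = 5.43e-06), *Adamts1* (0.83 ± 0.18, adjusted p = 7.56e-04) and *Adamts14* (0.76 ± 0.26, adjusted p = 0.0286) rose. The *Adamts14* call was lost without the filter on low counts (adjusted p = 0.0520), in the fit of only these groups (0.0645) and in limma (0.0986). These were 4 of 10 members, in a comparison with 17% of all genes called and 9.48% higher. Every day 14 mouse was above every day 7 mouse for *Adamts2*, which held for 0.358% of all genes tested. Between neighbouring days after day 14, edgeR called 0 of the 10 members, with 1.03% of all genes called from day 14 to day 21, 0.727% from day 21 to 28, 1.27% from day 28 to 35 and 0% from day 35 to 42. DESeq2 and limma also called 0. Among these tests of 10 members over 4 intervals, 10 had an unadjusted p under 0.05, all for lower values on the later day. The share of all genes under that unadjusted threshold was not computed, so this count has no background and is not read as a result about the members. Neighbouring intervals also share a group of mice, so these 10 tests are not independent of each other. Over the longer interval from day 14 to day 42, 7 of 10 members were lower and 0 higher, where 34% of all genes tested were called and 18.8% were lower. These were *Adamts12* (-2.84 ± 0.48, adjusted p = 4.46e-06), *Adamts4* (-1.87 ± 0.53, adjusted p = 0.00447), *Adamts14* (-1.75 ± 0.31, adjusted p = 1.13e-05), *Adamts15* (-1.29 ± 0.23), *Adamts2* (-1.06 ± 0.17), *Adamts9* (-0.94 ± 0.19) and *Adamts5* (-0.49 ± 0.18, adjusted p = 0.0329). The *Adamts5* call was lost without the filter on low counts (adjusted p = 0.0676), in the fit of only these groups (0.0718) and in limma (0.0591). For *Adamts2* and *Adamts14*, all day 42 mice lay below all day 14 mice, as for 2.68% of all genes tested. *Adamts8* differed by -0.18 ± 0.15 between the days (adjusted p = 0.365) and *Adamts1* by -0.45 ± 0.20 (adjusted p = 0.0685), neither past the threshold, although *Adamts1* passed it with the replicate block (-0.51, adjusted p = 0.0374).

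Mice of one day differed several-fold in some members, so each member was set against *Col1a1*, the gene of the main fibrillar collagen chain, within day 14 and within day 28 (12 mice each). *Col1a1* ranged from 10.01 to 12.12 log2 CPM on day 14 and from 8.64 to 11.68 on day 28, with largest gaps between neighbouring mice of 0.47 and 0.93. Of 20 relations computed, 15 passed an adjusted p of 0.05 by a two-sided permutation test of Pearson's r. These were 9 of 10 members on day 14, with an absolute r of 0.65 or more, which 21.8% of the 16220 other genes tested also had, and 6 of 10 on day 28, with 0.71 or more, which 15.9% had. Mice with more *Col1a1* RNA had more *Adamts12* RNA on day 14 (r = 0.91, adjusted p = 4.50e-04, Spearman's rho = 0.90, adjusted p = 9.20e-04, permutation tests) and on day 28 (r = 0.94, adjusted p = 4.00e-04, rho = 0.80, adjusted p = 0.00566, permutation tests). The same held for *Adamts4* (r = 0.86 and 0.90, rho = 0.82 and 0.94, all adjusted p at most 0.00480 by permutation), *Adamts2* (r = 0.77 and 0.83, rho = 0.74 and 0.90), *Adamts15* (r = 0.77 and 0.87, rho = 0.86 and 0.76) and *Adamts1* (r = 0.76 and 0.89, rho = 0.80 and 0.91). Without the 2 mice farthest from the median of *Col1a1*, r for these 5 genes lay between 0.60 and 0.93. *Adamts8* ran the other way on day 14 (r = -0.75, adjusted p = 0.00660, rho = -0.85, adjusted p = 0.00291, permutation tests, and r = -0.68 without the 2 mice), and on day 28 r was -0.45 (adjusted p = 0.165, permutation test). *Adamts10* had r = -0.65 on day 14 (adjusted p = 0.0309, permutation test) and *Adamts5* r = 0.80 (adjusted p = 0.00610, permutation test), and neither passed on day 28. *Adamts14* had r = 0.90 on day 14, but r = 0.71 on day 28 (rho = 0.50) rested on the 2 outlying mice, without which it was 0.19. For *Adamts9*, r was -0.20 and -0.26, neither past the threshold. Without the day 28 mouse that held muscle and adipose markers, r on day 28 was 0.96 for *Adamts12*, 0.88 for *Adamts4* and 0.80 for *Adamts2*. Genes of the same library share its cell composition, and the part of composition in these relations was not tested.

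**Figure D4:**
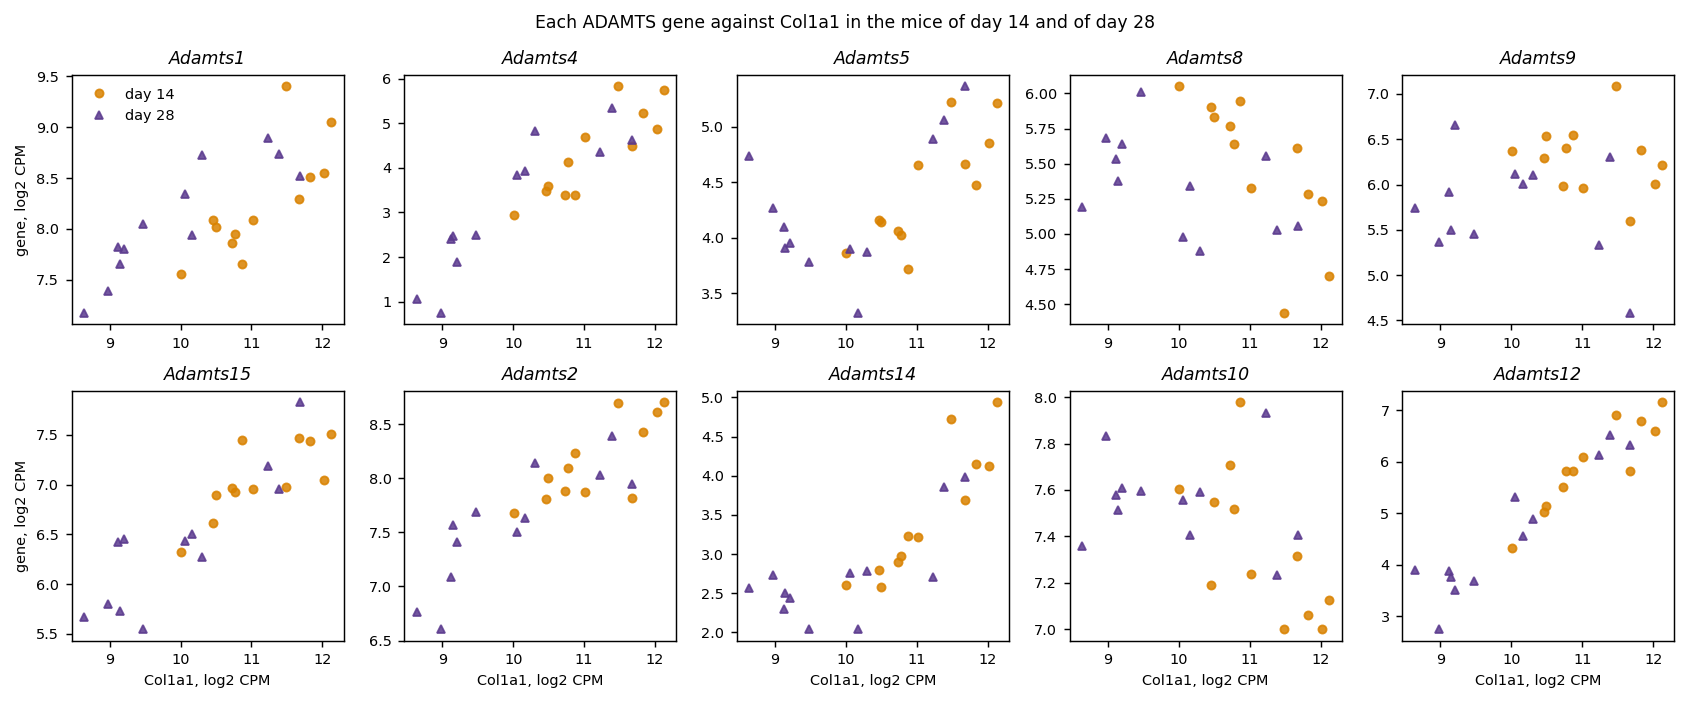
Log2 CPM of each member (y axis) against log2 CPM of *Col1a1* (x axis), with 1 point per mouse for the 12 mice of day 14 (orange circles) and the 12 mice of day 28 (purple triangles). *Adamts12*, *Adamts4* and *Adamts2* climb with *Col1a1* on both days (r between 0.77 and 0.94), *Adamts8* declines with it on day 14, and *Adamts9* has r of -0.20 on day 14 and -0.26 on day 28.

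RNA of cell type markers in the lobe differed between the groups, and these values stand beside the results for the members. Of all genes tested, 32.4% were called higher and 29.9% lower on day 14, and 13.7% higher and 11% lower on day 42. All 5 markers of monocyte-derived macrophages were called higher on days 7 to 35 and 4 of 5 on day 42, and their summed level ranged from 105 to 206 CPM in the controls, from 1084 to 8392 on day 14 and from 297 to 3138 on day 42. For club and ciliated cells, 5 of 5 markers were lower on day 14, with 18513 to 25173 CPM in the controls and 2196 to 14697 on day 14. Endothelial markers were lower for 4 of 5 genes on day 14 (2697 to 3677 CPM in the controls and 1572 to 2916 on day 14) and for 1 of 5 on day 42 (2319 to 3472 CPM). Fibroblast markers were split, with 2 of 5 higher and 3 of 5 lower on day 14 (1859 to 2342 CPM in the controls and 1466 to 2643 on day 14), and so were smooth muscle and myofibroblast markers, with 3 of 5 higher and 2 of 5 lower (584 to 790 and 507 to 1127 CPM). None of these markers was at 0 in all libraries of a group, and their part in the members' changes was not tested. Of the 5 AT2 markers, 4 were lower on day 14 and 0 on day 42, with median sums of 22139 CPM in the controls and 11397 on day 14, and they summed to between 5531 and 27923 CPM over all libraries. Of 4 plasma cell markers tested, 3 were higher on day 14 (256 to 370 CPM in the controls and 339 to 1831 on day 14, summed over 5 markers).

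Proteins that process, inhibit or receive these proteases were read from lists of other pathway genes. Of 12 regulators, 9 were higher (32.4% of all genes tested were) and 1 lower (29.9%) on day 14. On day 42, 3 were higher (13.7%) and 0 lower (11%). *Timp3* passed the test on 0 of the 6 days, with 1676 ± 191 CPM in the controls (SD, n = 10) and 1532 ± 268 on day 14 (SD, n = 12). *Timp1*, an inhibitor of many matrix metalloproteinases, rose from 5.19 ± 0.707 to 143 ± 91.9 CPM on day 14 (log2 fold change 4.78 ± 0.51, adjusted p = 2.29e-12). *A2m*, a broad protease trap, rose from 0.273 ± 0.159 to 7.48 ± 6.48 CPM (4.73 ± 0.48, adjusted p = 3.60e-13) and was at 0.123 ± 0.133 CPM on day 42. *Furin*, the convertase, rose by 0.84 ± 0.13 on the log2 scale on day 14 (adjusted p = 1.75e-07), and its day 42 value was 0.28 ± 0.15 (adjusted p = 0.169).

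The substrate lists differed in how many genes were called. Of all genes tested, 32.4% were higher and 29.9% lower on day 14, and 13.7% were higher on day 42. Of 8 genes for lecticans and their link proteins, only 3 passed the filter on low counts, and of these 2 were higher and 1 lower on day 14. *Vcan*, the gene of versican, was at 15.5 ± 4.19 CPM in the controls, 63.9 ± 30.3 on day 14 (log2 fold change 2.04 ± 0.25, adjusted p = 1.55e-10) and 17.4 ± 5.53 on day 42 (0.16 ± 0.28, adjusted p = 0.720), while *Acan*, the gene of aggrecan, was not tested. *Hapln1*, the gene of a hyaluronan link protein, rose by 1.59 ± 0.26 on day 14 from 0.831 ± 0.345 CPM (adjusted p = 3.83e-07). In the procollagen list, 5 of 7 tested genes were higher and 1 lower on day 14. *Col1a1* had a log2 fold change of 2.90 ± 0.33 on day 14 (adjusted p = 2.36e-11) and 0.70 ± 0.35 on day 42 (adjusted p = 0.133), *Col3a1* of 2.49 ± 0.19 and 1.04 ± 0.20 (adjusted p = 1.15e-17 and 7.59e-05), and *Bmp1*, the C-proteinase of procollagen, of 1.06 ± 0.13 and 0.40 ± 0.15 (adjusted p = 1.28e-10 and 0.0362). Of the 8 other substrates, 8 were higher on day 14 and 4 on day 42. *Fbn1*, the gene of fibrillin-1, rose from 144 ± 29.4 to 865 ± 380 CPM on day 14 (2.59 ± 0.24, adjusted p = 2.30e-14), and *Comp*, the gene of cartilage oligomeric matrix protein, from 0.291 ± 0.270 to 1.22 ± 0.445 CPM (2.03 ± 0.47, adjusted p = 1.46e-04).

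Relatives outside the 10 genes were mixed. Of 9 other ADAMTS genes, 7 were tested, with 4 higher (32.4% of all genes tested were) and 1 lower (29.9%) on day 14. On day 42, 1 was higher (13.7%) and 2 were lower (11%). *Adamts19* rose from 0.531 ± 0.323 to 1.75 ± 0.727 CPM on day 14 (log2 fold change 1.69 ± 0.28, adjusted p = 5.45e-07), and *Adamts7*, whose product also cuts cartilage oligomeric matrix protein, from 3.61 ± 0.433 to 11.3 ± 4.18 CPM (1.65 ± 0.26, adjusted p = 1.23e-07). Among the 7 ADAMTS-like genes, whose products lack a protease domain, 2 were higher and 1 lower on day 14. *Adamtsl2* was higher on all 6 days (1.02 ± 0.13 on day 14, adjusted p = 3.13e-10) and *Adamtsl5* lower on all 6 (-0.40 ± 0.08 on day 14, adjusted p = 2.20e-05).

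Genes with a course like that of the 3 members with the widest range were sought by the root mean square difference of the 7 centred group means of log2 CPM. Nearest to *Adamts4* were *Tnc*, the gene of the matrix protein tenascin-C (difference 0.23), *Msr1*, a macrophage scavenger receptor (0.24), and *Ackr1*, an atypical chemokine receptor (0.28), against a range of 4.53 for *Adamts4* itself. *Adamts12*, with a range of 3.87, was nearest to *Fn1* (fibronectin, 0.26), *Etv4* (an ETS transcription factor, 0.27) and *P4ha3* (a collagen prolyl hydroxylase subunit, 0.29). For *Adamts2*, with a range of 1.89, they were *Kdelr3* (a receptor for retrieval to the endoplasmic reticulum, 0.061), *Cd276* (an immune checkpoint molecule, 0.067) and *Loxl2* (a collagen cross-linking enzyme, 0.080).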

How the data were processed

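Bulk lung RNA was sequenced with a stranded kit in 75 mice, and the authors aligned reads with STAR 2.7.0f (per the submitters' processing notes) and deposited a table of raw read counts per gene. The counting program and its strand setting are not given in the sources used here. All 55536 gene identifiers matched the GENCODE M21 annotation of GRCm38. Groups came from the sample labels, and the numbers of BLEO libraries match the numbers of animals per day in the methods. The members, gene lists and tests were chosen with earlier results of these data known.

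Counts were scaled by trimmed mean of M-values, filtered with filterByExpr and fitted in edgeR 4.0.16 (R 4.3.3) with 1 mean per group over all 75 mice, using quasi-likelihood F tests with Benjamini-Hochberg adjustment over 16221 genes. CPM and CPM per kilobase of merged exons were computed from the counts and these scaled library totals. Relations with *Col1a1* used log2 CPM with a prior count of 2 and 100000 permutations. Alternatives were DESeq2 1.42.0, limma-trend 3.58.1, other scalings and filters, only the groups compared, a replicate block, leaving out each mouse, and, added after seeing the data, leaving out the day 28 mouse with replicate number 10. The scripts were tested on simulated data. Genes named outside the 10 members were, per list, the 2 with the largest absolute log2 fold change against saline on any day among genes called on at least 4 of the 6 days, plus *Timp3*, *Vcan*, *Col1a1*, *Col3a1*, *Bmp1* and *Furin* whatever their values, and the 3 nearest courses (mean log2 CPM above 1) for the 3 members with the widest range. *Acan* was named outside this rule. One result is not reported here. Library totals were 9240291 to 14665247 counts, which limits precision mainly for *Adamts4* in controls.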

Additional observations from a re-analysis of the deposited data

Results flagged for a closer look

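Single mice stood far from the rest of their group in 6 of 30 groups of values tested (10 members in the controls and on days 7 and 42). All 6 were the highest value of their group. The cutoff used flags about 1 in 20 groups when values are normally distributed, which was not checked for CPM. The 30 groups also share mice between members, so 6 of 30 cannot be set against that rate. Days 14 to 35, with 12 mice each, were not tested this way. In the controls these were replicate 3 for *Adamts1* (234 CPM) and replicate 5 for *Adamts4* (1.22 CPM, from 18 counts). On day 7, replicate 5 had 201 CPM of *Adamts15*. On day 42, replicate 7 was the highest for *Adamts15* (84.6 CPM), *Adamts14* (5.597 CPM) and *Adamts12* (23.5 CPM), so these 3 values come from 1 mouse.

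The change against saline differed between days, tested as the difference of the days in the edgeR fit. From day 14 to day 42 it differed by -2.84 (log2) for *Adamts12*, -1.87 for *Adamts4*, -1.75 for *Adamts14*, -1.29 for *Adamts15*, -1.06 for *Adamts2*, -0.94 for *Adamts9* and -0.49 for *Adamts5*, the last of which lost its call under 3 of 9 alternatives. From day 7 to day 14 it differed by 1.88 for *Adamts12*, 0.96 for *Adamts2*, 0.83 for *Adamts1* and 0.76 for *Adamts14*, the last of which also lost its call under 3 of 9.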

How the results depend on the processing

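Of 1068 values of the members under the alternatives, 1040 kept their side of the threshold, 9 lost the call and 19 gained one. Of the 1040, 13 had the other sign without a call in either fit, and 0 called values changed sign. On day 42 against saline, where 4 members were called, there were 2 with at least 10 counts in every mouse, a filter that removed *Adamts4* and left 9 members, and 7 in the fit of only these groups. Leaving out each mouse in turn (limma) gave 3 to 5 calls on day 42, 8 to 9 on day 14, 7 to 8 on day 21, 4 to 5 on day 35, 6 to 7 from day 14 to day 42, and 0 to 1 from day 14 to day 21, where *Adamts14* was called without day 21 replicate 10 (adjusted p = 0.0439). Calls that depended on single mice in limma were those of *Adamts12* on day 42 (lost without any one of 47 of the 75 mice), *Adamts14* on day 42 (lost for 36 of 75) and *Adamts10* on day 14 (day 14 replicates 3 and 8 and saline replicate 10). Without the day 28 mouse with replicate number 10, 5 members were called on day 35 and the count from day 14 to day 21 stayed at 0.

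Replicate numbers did not pair the mice. The median correlation of same-numbered mice was 0.0057 (204 pairs, 63 of them over 0.1), and 8 of 75 mice correlated best with a mouse of their own number. With the replicate block, 6 members were called on day 35, 6 from day 7 to day 14 and 8 from day 14 to day 42, and the other counts were as without it.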
